A study of Mus musculus with 6 samples.

Results

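The acute-phase and innate defence genes Lcn2, Saa3, S100a8, S100a9, Cd14 and Slpi were followed across 6 RNA sequencing libraries of the mouse mammary carcinoma line E0771. They were taken by symbol from the 28063 genes of the count table. All 6 had a row, and 5 of the 6 passed the filter on low counts. S100a9 did not pass it. The cells carried a control vector (Vector), wild-type Malt1 (Malt1_WT) or a Malt1 form that the labels name PD without spelling it out (Malt1_PD), with 2 libraries each. MALT1 is a scaffold and protease that acts on NF-kB signalling. All 3 populations met activated CD8 T cells, at 3 effectors per target cell over 12 hours, and were then washed, trypsinised, replated and lysed after 6 hours more, so no library here is free of T cell contact. The labels give neither the promoter of the constructs nor whether a population was 1 clone or pooled, and each form exists as 1 population, so form and population cannot be told apart. Nothing in them says whether the pair of libraries in each population came from different cultures. A p-value here therefore weighs a difference against the spread of libraries, which may be technical.

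Acute-phase proteins are secreted when inflammatory cytokines act on a tissue, and their genes respond to NF-kB, C/EBP and STAT3 transcription factors. The liver is the classical source, and epithelial and tumour cells make several of them too. Lipocalin 2 (Lcn2) binds bacterial siderophores and withholds iron, serum amyloid A3 (Saa3) is an extrahepatic serum amyloid, and S100a8 and S100a9 encode the subunits of calprotectin, a metal-binding protein abundant in neutrophils. Slpi encodes a secreted inhibitor of neutrophil elastase, and Cd14 a co-receptor that hands lipopolysaccharide to TLR4.

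Total counts ran from 14045390 to 19962014 a library. The floor of 3 counts equals 0.150 to 0.214 CPM (counts scaled to library size with edgeR's TMM factors). Malt1 had 23.8 and 31.3 CPM in Vector, 67.2 and 82.1 in Malt1_WT, and 106 and 95.7 in Malt1_PD. These levels follow the direction of the labels, and Malt1_PD lay above Malt1_WT without overlap. Replicate 1 of Vector and of Malt1_WT held less of long and more of short mRNAs than replicate 2: well-measured genes of up to 1693 nt took 11.2% and 9.29% of such counts in Vector, 10.3% and 9.28% in Malt1_WT, but 10.04% and 9.87% in Malt1_PD. That limit is on the deposited gene lengths, which put Lcn2 (2623 nt) and Saa3 (2606 nt) above it and the other members below it. The principal transcripts of the members span 486 to 1641 nt. All 5 tested members were higher in replicate 1 than in replicate 2 of Vector. Of 15 epithelial markers with a row, 5 passed the filter. Krt8 lay between 108 and 124 CPM and Epcam between 6.16 and 8.97 CPM, while Cdh1 and Krt18 had at most 8 and 12 counts in a library. For both Malt1 forms against Vector the 3 smallest p of this list were those of Krt14 (log2 fold change 2.18 ± 0.71, at most 1.25 CPM), Trp63 (-0.59 ± 0.21) and Foxa1 (0.40 ± 0.17), with edgeR adjusted p of 0.386, 0.428 and 0.502. Summed T cell markers came to between 8 and 24 counts a library.

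Saa3 and Lcn2 were the most abundant members. Saa3 (ENSMUSG00000040026.8, chromosome 7, 46711998 to 46715700 in GRCm38) ranked between 300 and 628 among all genes by CPM, and Lcn2 (ENSMUSG00000026822.14, chromosome 2, 32384633 to 32388252) between 542 and 756. Per length, in RPKM (CPM per kilobase of exon), Saa3 spanned 107 to 171, Lcn2 93.3 to 115, Slpi 44.5 to 69.8, S100a8 16.6 to 30.2 and Cd14 4.51 to 7.38 across the libraries. Only the neighbours Saa3 and Lcn2 overlapped in this order. Their order depends on the length used. The table's lengths of 2606 and 2623 nt cover the exons of all annotated transcripts, and on the principal transcripts of 555 and 915 nt Saa3 spanned 504 to 802 and Lcn2 267 to 329 RPKM, with no overlap.

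The start regions of these 2 genes are shown because their fitted differences from Vector had opposite signs. Each is the RefSeq window (GRCm38.p6) from 250 bases before to 50 bases after the annotated start, read along the gene, at chr2:32387690-32387989 (minus strand) for Lcn2 and chr7:46715627-46715926 (minus strand) for Saa3. Capitals mark matches of TTGCNNAA, letters of a C/EBP site, searched on both strands.
Lcn2: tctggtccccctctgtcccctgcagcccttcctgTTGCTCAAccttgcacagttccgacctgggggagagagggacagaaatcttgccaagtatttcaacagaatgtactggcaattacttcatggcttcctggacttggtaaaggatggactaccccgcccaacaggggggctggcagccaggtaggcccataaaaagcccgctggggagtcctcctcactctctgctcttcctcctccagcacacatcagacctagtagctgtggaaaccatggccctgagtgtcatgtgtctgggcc
Saa3: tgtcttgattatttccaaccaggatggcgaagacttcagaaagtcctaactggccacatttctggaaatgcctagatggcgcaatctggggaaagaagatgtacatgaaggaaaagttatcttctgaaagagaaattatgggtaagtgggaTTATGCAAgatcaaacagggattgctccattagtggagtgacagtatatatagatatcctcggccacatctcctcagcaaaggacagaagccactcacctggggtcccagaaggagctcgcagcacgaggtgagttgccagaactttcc
The Lcn2 match lies from -216 to -209 and the Saa3 match, on the reverse strand, from -99 to -92, counting the first transcribed base as 0. Matches of these letters are found in 10.8% of the 32851 mouse start regions of that length. The letters TGANTCA (AP-1, in 7.81% of start regions) and TTCNNNGAA (STAT, 8.30%) were searched on both strands and have no match in the windows of Lcn2, Saa3, S100a8, S100a9 or Slpi. An NF-kB motif (GGG, any 2 bases, then TTTCC), in 1.63% of start regions, also had no match in these windows on either strand. Looser forms of it were not searched. Slpi has a TTGCNNAA match on the reverse strand from -241 to -234. A match or its lack describes letters in this window alone.

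**Figure D1:**
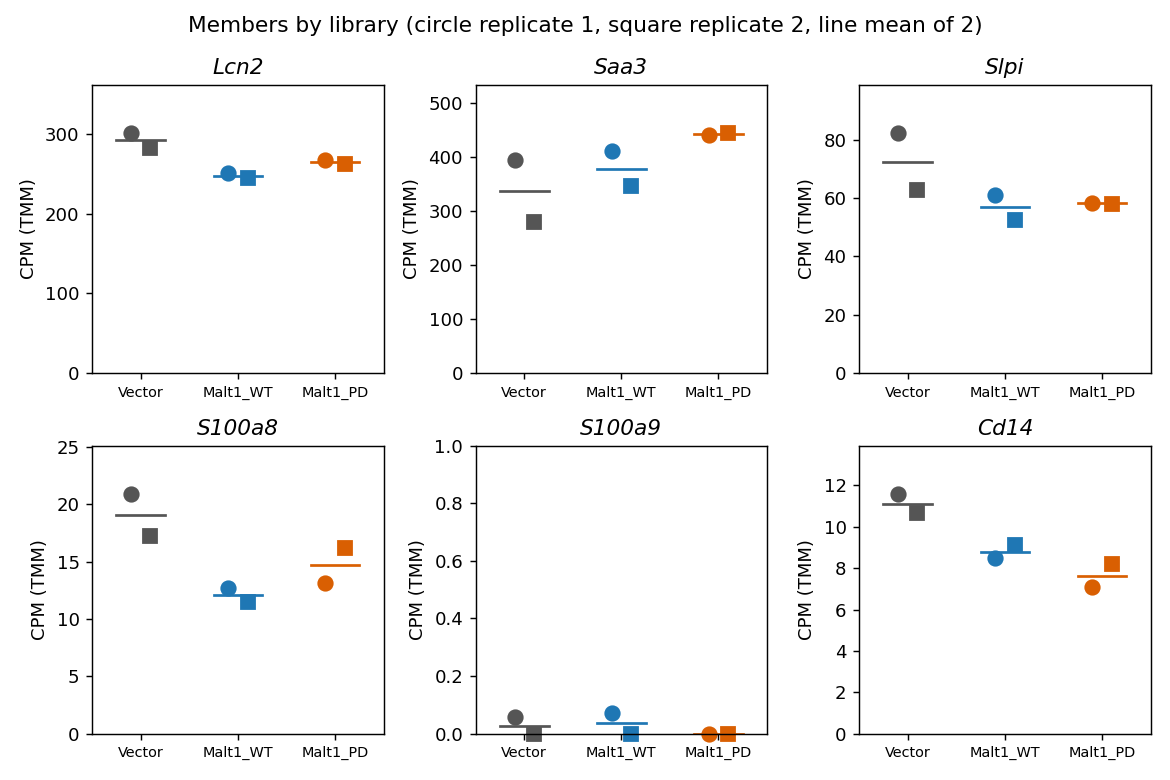
CPM of each member (y axis, linear from 0) in each library, by population on the x axis, with circles for replicate 1, squares for replicate 2 and lines for the mean of 2. Lcn2, Slpi, S100a8 and Cd14 sat higher in both Vector libraries than in the 4 Malt1 libraries, Saa3 was highest in Malt1_PD, and S100a9 was at or near 0 throughout.

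Lcn2 had 301 and 282 CPM in Vector. Malt1_WT gave 251 and 245 CPM, and Malt1_PD 268 and 263 CPM. The Vector pair was the highest and the Malt1_WT pair the lowest, with no overlap between any 2 groups. The group means were 292 ± 13.3, 248 ± 4.39 and 265 ± 3.49 CPM (SD, n = 2 each). For both Malt1 forms against Vector the log2 fold change was -0.19 ± 0.07 (SE), with an edgeR adjusted p of 0.41 (quasi-likelihood F, Benjamini-Hochberg over the 14675 genes tested). At this abundance counting error is small, and the interval of the difference ran from -0.34 to -0.04 (95%).

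Saa3 had 396 and 279 CPM in Vector, 412 and 346 with Malt1_WT, and 441 and 445 with Malt1_PD. Both Malt1_PD libraries were above all others, while Malt1_WT overlapped with Vector. The Vector pair differed by a factor of 1.42, the widest replicate gap of any tested member, and the Malt1_PD pair by a factor of 0.990. The log2 fold change was 0.39 ± 0.16 for Malt1_PD against Vector (edgeR adjusted p = 0.556) and 0.17 ± 0.16 for Malt1_WT against Vector (edgeR adjusted p = 0.886). Which Vector library is used moves these values. For Malt1_PD against Vector, the value was 0.67 ± 0.10 without Vector replicate 1 (adjusted p = 0.014) and 0.16 ± 0.10 without Vector replicate 2 (adjusted p = 0.353). With a length trend removed from every library it was 0.44 ± 0.11 on the table's lengths (adjusted p = 0.107) and 0.39 ± 0.05 on principal transcripts (adjusted p = 0.00555), the latter chosen after seeing the data. For Malt1_WT against Vector, the value was 0.44 ± 0.10 without Vector replicate 1 (adjusted p = 0.086) and -0.063 ± 0.097 without Vector replicate 2 (adjusted p = 0.766). A fit with 1 Vector library assumes that it varies like the other groups.

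The calprotectin genes were split. S100a8 (ENSMUSG00000056054.9, chromosome 3, 90668978 to 90670035) had 1571 counts over the 6 libraries, and its neighbour S100a9 (ENSMUSG00000056071.12, chromosome 3, 90692632 to 90695721) had 2. The S100a9 counts were 1 in Vector replicate 1, 1 in Malt1_WT replicate 1 and 0 in the other 4 libraries, all under the floor, so no fold between groups is given. Per length, S100a8 stood at least 44.9-fold above the S100a9 floor of its own library, and up to 93.3-fold. In neutrophils both subunits are made together in large amounts. Here the neutrophil granule genes Ngp, Mpo, Camp and Elane had at most 1, 3, 5 and 5 counts in a library. Prtn3, another granule gene, and the neutrophil surface gene Ly6g were counted more, at 122 to 238 and 50 to 168. Which cells the S100a8 counts came from was not tested.

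The start regions of this pair are shown because 1 gene was counted and the other was not. They lie at chr3:90668821-90669120 (plus strand) for S100a8 and chr3:90695672-90695971 (minus strand) for S100a9, with the same windows as above. Capitals mark TATAAA, the core of a TATA box, searched along the gene and found in 8.32% of start regions, and TTGCNNAA.
S100a8: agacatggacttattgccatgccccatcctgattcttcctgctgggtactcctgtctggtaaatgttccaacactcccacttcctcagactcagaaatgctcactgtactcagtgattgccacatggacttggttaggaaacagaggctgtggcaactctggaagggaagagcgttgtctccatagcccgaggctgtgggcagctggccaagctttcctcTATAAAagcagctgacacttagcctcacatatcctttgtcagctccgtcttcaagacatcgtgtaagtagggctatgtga
S100a9: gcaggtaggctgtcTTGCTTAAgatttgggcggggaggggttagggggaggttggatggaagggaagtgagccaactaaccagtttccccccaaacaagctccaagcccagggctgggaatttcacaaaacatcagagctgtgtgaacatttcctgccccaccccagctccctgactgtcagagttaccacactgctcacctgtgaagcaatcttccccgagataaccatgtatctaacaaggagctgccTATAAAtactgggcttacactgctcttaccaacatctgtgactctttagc
TATAAA lies from -30 to -25 in S100a8. In S100a9 it begins at the annotated first base, and TTGCTTAA lies from -236 to -229. S100a8 has no match of TTGCNNAA in its window.

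S100a8 had 20.9 and 17.3 CPM in Vector, 12.7 and 11.5 with Malt1_WT, and 13.2 and 16.2 with Malt1_PD, from 179 to 372 counts a library. Both Vector libraries were above the other 4, and Malt1_WT was lowest, without overlap with Malt1_PD. For both Malt1 forms against Vector the log2 fold change was -0.52 ± 0.13 (edgeR adjusted p = 0.256), and for Malt1_WT alone -0.66 ± 0.16 (edgeR adjusted p = 0.389). Of the tested members it had the largest fitted difference in both of these comparisons. For both forms it was past the threshold without Vector replicate 2 (-0.65 ± 0.15, adjusted p = 0.0201) but not without Vector replicate 1 (-0.37 ± 0.15, adjusted p = 0.274). With the length trend removed the adjusted p was 0.0549 on the table's lengths, 0.047 on principal transcripts and 0.0155 on the table's lengths with a replicate block, and it was 0.0319 without the low-count filter. In bulk libraries, fewer cells that hold an mRNA and less of it in each cell cannot be told apart.

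Slpi (ENSMUSG00000017002.14, chromosome 2, 164354070 to 164389095), the antiprotease gene, had 82.4 and 62.7 CPM in Vector, 61.1 and 52.6 with Malt1_WT, and 58.5 and 58.2 with Malt1_PD. Vector replicate 1 stood apart from the rest, and Vector replicate 2 lay just above Malt1_WT replicate 1. The log2 fold change of both forms against Vector was -0.33 ± 0.12 (edgeR adjusted p = 0.418). It was -0.52 ± 0.09 without Vector replicate 2 (adjusted p = 0.00737) and -0.12 ± 0.10 without Vector replicate 1 (adjusted p = 0.576). With the length trend removed it was -0.32 ± 0.06 on the table's lengths (adjusted p = 0.039) and -0.31 ± 0.06 on principal transcripts (adjusted p = 0.0207). Elane, which encodes the elastase that SLPI inhibits, had 1 to 5 counts a library, and Mmp9, a gelatinase that lipocalin 2 binds, had 26.1 and 28.4 CPM in Vector, 19.7 and 22.7 in Malt1_WT, and 26.6 and 24.7 in Malt1_PD.

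Cd14 (ENSMUSG00000051439.6 in the table, 1572 nt) had 11.6 and 10.6 CPM in Vector, 8.47 and 9.13 with Malt1_WT, and 7.09 and 8.20 with Malt1_PD, from 112 to 206 counts. The groups did not overlap, with Vector highest and Malt1_PD lowest. Both forms against Vector gave a log2 fold change of -0.44 ± 0.13 (edgeR adjusted p = 0.342). No alternative put it past the threshold, and over the 15 alternatives its value ran from -0.50 to -0.35. Tlr4, the signalling receptor, stood at -0.15 ± 0.11 and Ly96, the MD-2 subunit that binds lipopolysaccharide, at -0.04 ± 0.22 in that comparison (edgeR adjusted p = 0.714 and 0.965).

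**Figure D2:**
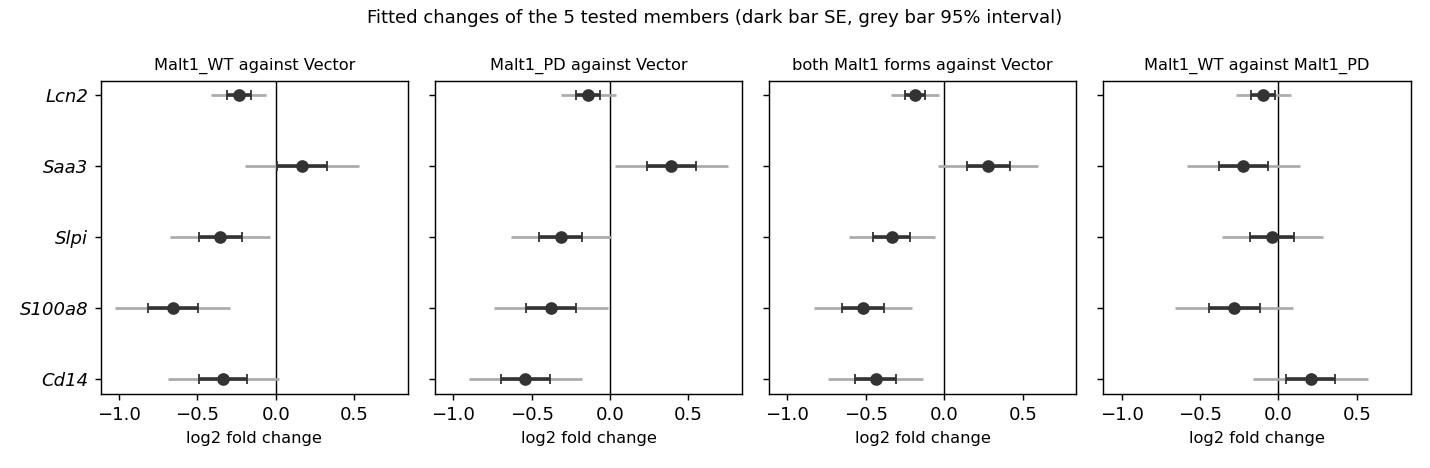
Fitted log2 fold changes (x axis) of the 5 tested members in 4 comparisons, with dark bars for the SE and grey bars for the 95% interval. Lcn2, Slpi, S100a8 and Cd14 lie below 0 and Saa3 above 0 in the 3 comparisons with Vector, which share the Vector libraries, and every interval in Malt1_WT against Malt1_PD includes 0.

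No member was called in any comparison at an adjusted p under 0.05 by edgeR, DESeq2 or limma-voom. For both Malt1 forms against Vector, edgeR called 0.0136% of all genes higher and 0.0136% lower. An unadjusted p under 0.05 was reached by 4 of the 5 tested members on the lower side (5.4% of all genes) and 0 on the higher side (4.45%). The libraries did not overlap for these 4 members, with all 4 Malt1 libraries below both Vector libraries, a pattern of 10.8% of all genes, and a value below 0, which these 4 also had, was found for 50.5% of all genes. The median over the 5 tested members was -0.33, against -0.003 over all genes.

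For Malt1_WT against Vector, edgeR called 0.00681% of all genes higher and 0% lower, and 3 of the 5 tested members were lower at an unadjusted p under 0.05 (Lcn2, S100a8 and Slpi) beside 3.8% of all genes, and 0 were higher, beside 3.3%. Libraries did not overlap for 4 members, all lower, beside 17.1% of all genes (15.5% higher), and 4 values were below 0, beside 50.3%. For Malt1_PD against Vector it also called 0.00681% higher and 0% lower, with 2 members lower (S100a8 and Cd14, beside 4.88% of genes) and 1 higher (Saa3, beside 3.73%) at that level. Here libraries did not overlap for 4 members that were lower (19.7% of all genes) and 1 that was higher (18.4%), and 4 values were below 0 (50.3%). The member values of the 2 comparisons, side by side, were -0.24 and -0.14 for Lcn2, 0.17 and 0.39 for Saa3, -0.66 and -0.38 for S100a8, -0.33 and -0.54 for Cd14, and -0.35 and -0.31 for Slpi. They share the Vector libraries.

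The direct comparison of the 2 forms showed no member past the threshold by edgeR, DESeq2 or limma-voom, and 0 members reached an unadjusted p under 0.05, beside 0.838% of all genes higher and 1.08% lower. For Malt1_WT against Malt1_PD, edgeR called 0.00681% of all genes higher and 0% lower. The log2 fold change and its 95% interval were -0.10 (-0.27 to 0.08) for Lcn2, -0.23 (-0.59 to 0.14) for Saa3, -0.28 (-0.66 to 0.09) for S100a8, 0.20 (-0.16 to 0.57) for Cd14 and -0.04 (-0.36 to 0.28) for Slpi. These intervals leave room for differences as large as those from Vector, so the forms are not shown to act alike. Libraries of the forms did not overlap for 3 members lower in Malt1_WT (16% of all genes) and 1 higher (16.1%), with Slpi overlapping, and 4 values were below 0 (49.5%).

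**Figure D3:**
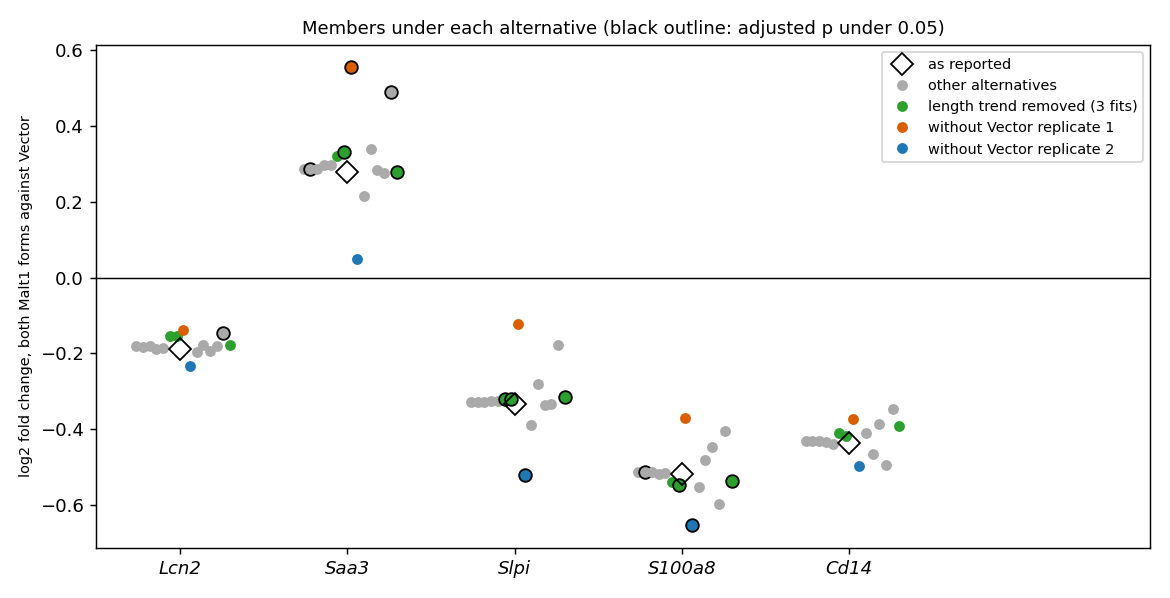
Log2 fold change of both Malt1 forms against Vector (y axis) for each tested member, as reported (diamonds) and under each alternative (points, outlined in black where the adjusted p was under 0.05). Removing Vector replicate 1 or replicate 2 moves Saa3, Slpi and S100a8 most, and no point crosses 0.

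The other acute-phase genes mostly had values above 0, as Saa3 did. For both Malt1 forms against Vector Saa3 stood at 0.28 ± 0.14 (edgeR adjusted p = 0.561), and its libraries overlapped. Of 30 listed acute-phase genes besides the members, 21 had a row and 12 were tested. For both Malt1 forms against Vector edgeR called 0 of them, 1 had a value below 0 (beside 50.5% of all genes), and 5 reached an unadjusted p under 0.05, all higher (beside 4.45%). The median was 0.51, against -0.003 over all genes. The libraries did not overlap for 5 of the 12, all higher (beside 9.74% of genes). DESeq2 called 4 of them higher, beside 32 higher among all 14675 genes tested, and limma-voom called 0 of them. The median ran from 0.23 (without Vector replicate 2) to 0.62 (without Vector replicate 1) over the alternatives.

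Orm1, which encodes the plasma carrier orosomucoid, had 2.20 and 2.19 CPM in Vector, 4.84 and 4.89 with Malt1_WT, and 6.52 and 5.47 with Malt1_PD, a log2 fold change of 1.30 ± 0.19 for both forms (edgeR adjusted p = 0.0834). Lbp, the lipopolysaccharide-binding protein that loads CD14, had 5.12 and 4.99 CPM in Vector, 11.7 and 9.47 in Malt1_WT, and 10.1 and 7.67 in Malt1_PD (0.94 ± 0.18, edgeR adjusted p = 0.141). For these genes every Malt1 library was above both Vector libraries. C3, the central complement component, had 224 and 308 CPM in Vector, 379 and 437 in Malt1_WT, and 435 and 415 in Malt1_PD (0.65 ± 0.13, edgeR adjusted p = 0.154). Hp, which encodes the haemoglobin binder haptoglobin, had 152 and 122 CPM in Vector, 186 and 168 in Malt1_WT, and 212 and 214 in Malt1_PD (0.50 ± 0.10, edgeR adjusted p = 0.156). DESeq2 put these 4 genes past the threshold, among 32 higher genes in all. The DESeq2 adjusted p were 0.0049 (Orm1), 0.0134 (Lbp), 0.00126 (C3) and 0.00908 (Hp). Steap4, a metalloreductase gene, stood at 0.52 ± 0.20 (edgeR adjusted p = 0.467). Saa1, another serum amyloid gene, had 3 to 12 counts a library and was not tested.

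The upstream list held 28 regulators of acute-phase genes, of which 27 had a row and 26 were tested. They were cytokines, receptors and transcription factors, and also inhibitors and RNA regulators such as Socs3 and Zc3h12a. In the comparison of both forms with Vector edgeR called 0, with 7 lower and 1 higher at an unadjusted p under 0.05 (beside 5.4% and 4.45% of all genes), and the median was -0.07, against -0.003 over all genes. Il6, the main inducing cytokine, had 37.7 and 30.5 CPM in Vector, 21.6 and 18.3 in Malt1_WT, and 14.2 and 16.5 in Malt1_PD (-0.96 ± 0.12, edgeR adjusted p = 0.0603, DESeq2 adjusted p = 7.21e-06). Cebpd, a C/EBP factor induced by cytokines, had 68.9 and 58.0 CPM in Vector, 47.1 and 41.1 in Malt1_WT, and 43.6 and 44.4 in Malt1_PD (-0.53 ± 0.10, edgeR adjusted p = 0.127, DESeq2 adjusted p = 0.020). Both genes thus lay lower in all 4 Malt1 libraries, as did Osm, a cytokine of the IL-6 family, at -0.87 ± 0.20 (edgeR adjusted p = 0.205). The lower side at an unadjusted p under 0.05 also held Atf3 at -0.38 ± 0.10, Rel at -0.31 ± 0.11 and Nfkb2 at -0.15 ± 0.06. It held Socs3 too, the feedback inhibitor of IL-6 signalling, at -0.22 ± 0.06. Each of these lay lower in all 4 Malt1 libraries. The 1 gene on the higher side was Il6ra, at 0.22 ± 0.07. Other named factors were closer to 0, with Cebpb at 0.03 ± 0.07 and Stat3 at 0.05 ± 0.08. Nfkbiz, an IkB family coactivator gene, stood at -0.10 ± 0.07, and Zc3h12a, which encodes the RNase Regnase-1, at 0.10 ± 0.08.

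**Figure D4:**
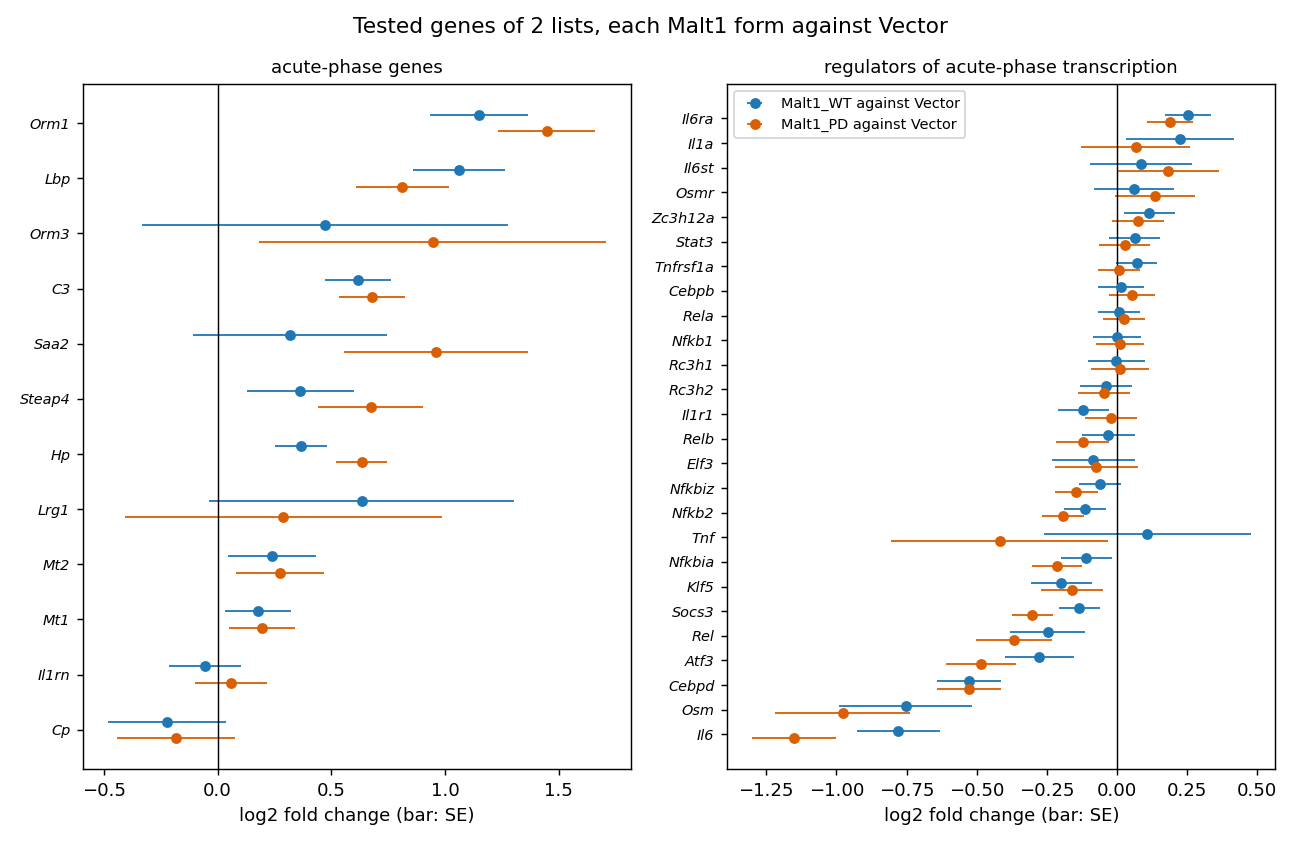
Log2 fold change (x axis, bars for the SE) of Malt1_WT and Malt1_PD against Vector for the tested genes of 2 lists, 12 acute-phase genes at left and 26 upstream genes at right, ordered by the mean of both forms. By the mean of both forms, Orm1 and Lbp lie farthest above 0 and Il6 and Osm farthest below it.

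Other lists around the members held 0 genes called by edgeR for both forms against Vector. The counts at an unadjusted p under 0.05 that follow stand beside 4.45% of all genes higher and 5.4% lower. Of 9 tested S100 genes 0 reached an unadjusted p under 0.05, with S100a16 at -0.66 ± 0.30, S100a11 at -0.19 ± 0.09 and S100a13 at -0.35 ± 0.18, and S100a6 was the most abundant, at 868 to 1175 CPM. Of 16 tested genes for lipopolysaccharide and danger signal receptors and their adaptors, 2 were above 0 at that level and none below it, Lbp (above) and the adaptor gene Myd88 at 0.20 ± 0.09, with the kinase gene Irak1 at 0.13 ± 0.07. Ager, the receptor gene for S100 proteins, had 4 to 13 counts a library. Of 13 tested genes of iron handling, 2 were higher, the metalloreductase gene Steap3 at 0.32 ± 0.08 and the transferrin receptor gene Tfr2 at 0.41 ± 0.14, and Fth1, the ferritin heavy chain gene, stood at -0.17 ± 0.08. Slc22a17, described as a lipocalin 2 receptor, had a total of 1 count over the 6 libraries together. Of 11 tested secreted antimicrobial and antiprotease genes, 2 were lower, the proteinase 3 gene Prtn3 at -0.59 ± 0.12 and the serpin gene Serpinb6b at -0.44 ± 0.11, and Mmp9 stood at -0.22 ± 0.10.

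Summed neutrophil and macrophage markers were also highest in Vector, like the members below 0, and their part in the member values was not tested. The 11 neutrophil markers with a row summed to 21.1 to 23.6 CPM in Vector, 13.8 to 15.5 in Malt1_WT and 12.66 to 12.97 in Malt1_PD. Nearly all of this came from Prtn3 (122 to 238 counts a library) and Ly6g (50 to 168 counts, -1.05 ± 0.22 for both forms, edgeR adjusted p = 0.167), the 2 that passed the filter. The other 9 had at most 17 counts each in a library, with Mpo, Elane and Ngp at no more than 3, 5 and 1. The 11 macrophage markers with a row summed to 10.1 to 11.9 CPM in Vector, 9.04 to 9.47 in Malt1_WT and 7.90 to 9.05 in Malt1_PD, mostly from Cd68 and Lyz2, with Adgre1 and Csf1r at no more than 2 and 9 counts.

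The genes closest in profile to each member were found by the root mean square difference of centred log2 CPM over the 6 libraries, among 10562 other genes. The number of genes within a fixed distance depends on how much the member itself varied. S100a8 varied most, and its closest genes were Prkg2 (0.0738), Tmem35b (0.0871) and Gpsm3 (0.101), with 2 genes within 0.1. For Cd14 they were Dbt (0.0571), Ifi213 (0.0629) and Apold1 (0.0640), with 45 genes within 0.1, and for Slpi Pam16 (0.0344), Rhox5 (0.0355) and Ccl2 (0.0357), with 276. Lcn2, which varied least, had 1982 genes within 0.1, with Hmgb1 (0.0185) and Hsp90aa1 (0.0186) among the closest. For Saa3 the closest were Rps13-ps4 (0.0517), Rps26-ps1 (0.0606) and mt-Co3 (0.0649), short genes of 456, 449 and 784 nt, and the first 2 are pseudogenes that share sequence with their parent genes. Among the members themselves, Slpi was the nearest to Lcn2, S100a8 and Cd14, at rank 3502 among the candidates for Lcn2, 84 for S100a8 and 961 for Cd14, and the member nearest to Saa3 (Lcn2) was at rank 5728.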

How the data were processed

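RNA of 6 libraries (3 populations, 2 each) was sequenced in directional paired-end libraries, per the labels' protocols. The authors deposited unnormalised read counts per gene. The submitters' processing notes list build GRCm38.p6 and, as tools without roles, featureCounts 1.6.3, STAR 2.7.3a and Trim Galore 0.6.0. Neither strand setting nor annotation version is given in the sources used here. The deposited gene lengths (nt) were used for RPKM. Another 6 columns of per-sample values were not used. Coordinates and principal transcripts come from GENCODE M21 (GRCm38), to which 28056 of 28063 identifiers matched without version. The members overlap no other annotated gene except Slpi, which shares 1 exon base with Mir7678.

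The test was the quasi-likelihood one of edgeR 4.0.16 under R 4.3.3 (filterByExpr, TMM, glmQLFit, glmQLFTest), with 3 group means, the 6 libraries together and no covariate. The Benjamini-Hochberg adjustment ran over 14675 genes, with a threshold of 0.05. SE derive from the quasi-likelihood F. The fit was also run on simulated counts with no length trend and with changes larger than those of the members. That run therefore does not cover differences of the members' size. DESeq2 1.42.0, limma-voom (limma 3.58.1), other size factors, no filter (every gene with a count), a fit of the groups compared, a replicate block, leaving out libraries, and removal of a per-library loess trend on gene length were alternatives; the trend on principal transcript length was chosen after seeing the data. Alternatives kept the genes of the reported fit except the one without a filter. Floors cover counting error only. The 95% intervals of log2 fold changes use the quasi-likelihood SE, which includes the spread between libraries.

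The members, lists and tests were chosen with earlier results of these data known. Named were the members, a fixed set of partners and regulators, the called genes and up to 3 genes per list with the smallest p for both forms against Vector, the 3 genes closest in profile to each member (mean log2 CPM of at least 1, prior count 2, no predicted symbol), and Malt1. A gene that this rule names is not reported here. Hp, Steap4, Atf3, Rel, Nfkb2, Il6ra, S100a6, Saa1 and the marker genes given by level or count were named after their values were seen. Start regions come from RefSeq (GRCm38.p6). Those of 5 of the 6 members were used, and that of Cd14 was left out.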

Additional observations from a re-analysis of the deposited data

How the results depend on the processing

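The reported counts of genes called by edgeR were 1 for Malt1_WT against Vector, 1 for Malt1_PD against Vector, 4 for both forms against Vector and 1 between the forms, and 0 members in each. In that order for the 3 comparisons with Vector, the genes called were 28, 42 and 80 with DESeq2, 113, 188 and 255 with no low-count filter (12 between the forms), 54, 95 and 210 with the length trend removed, and 133, 192 and 325 with the trend on principal transcript length removed. Members called in the same order were 1, 1 and 2 with no filter (S100a8, then Saa3, then both), 0, 0 and 1 (Slpi) with the length trend removed, and 1 (Slpi), 1 (Saa3) and 3 (Slpi, Saa3 and S100a8) with the trend on principal transcripts. The cause of the change with no filter was not tested. The replicate numbers were not shown to pair the libraries: the differences between replicates 1 and 2 correlated at 0.68 between Vector and Malt1_WT, -0.01 between Vector and Malt1_PD and 0.03 between the Malt1 forms. A replicate block called 6, 9 and 52 genes and 0 members, and the replicate block with the length trend removed called 189, 248 and 404 genes and 2, 1 and 3 members. Leaving out 1 library gave 1 to 526, 0 to 864 and 1 to 1138 genes and 0 to 2, 0 to 1 and 0 to 2 members. The most genes came without Vector replicate 2, then without Vector replicate 1 (39, 70 and 168), and without either Malt1_PD library 0 genes were called for Malt1_PD against Vector and 1 for both forms. Without Vector replicate 1 and Malt1_WT replicate 1 together there were 934, 2089 and 1764 genes (351 between the forms) and 4, 1 and 2 members (1 between the forms), in a fit whose spread comes from the Malt1_PD pair alone.

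Over the alternatives for single members, 2 values changed sign: Saa3 in Malt1_WT against Vector without Vector replicate 2 (range -0.063 to 0.44 over the libraries left out), and Slpi in Malt1_WT against Malt1_PD without Malt1_WT replicate 2 (range -0.15 to 0.067). Another 282 kept their direction and missed the threshold, and 31 kept their direction and passed it. S100a9 had no value to vary in the reported fit.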
